A study of Mus musculus with 12 samples.

Results

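The mitochondrial carriers of the solute carrier family 25 (Slc25) were followed in mouse brown adipose tissue (BAT) by RNA-seq. The members were all listed genes whose symbol is Slc25a followed by a number, without *Slc25a1*, *Slc25a20* and *Slc25a44*, which left 44 carriers of the 25124 genes listed (47 symbols had this form, 3 were left out). Of these, 34 averaged 1 TPM or more across the 12 libraries and 10 averaged less. TPM, a read count scaled to transcript length and library total, allows for gene length, so levels of different carriers can be set side by side.

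Carriers of this family are small proteins of the inner mitochondrial membrane, which lets few solutes pass unaided. Each moves a narrow set of solutes, often by exchange: ADP for ATP, phosphate with protons, dicarboxylates, amino acids, or cofactors such as coenzyme A and NAD that the matrix needs for fuel oxidation. The uncoupling proteins belong to the same family by sequence, and Ucp1 dissipates the proton gradient of brown adipocytes as heat.

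Interscapular BAT came from male mice of 10 weeks of age, either WT or *Txnip*-/-, the latter lacking thioredoxin-interacting protein in the whole body on a C57B/6J background. The mice were kept for 1 week at room temperature (RT, 23 °C) or at thermoneutrality (TN, 30 °C), where little heat needs to be made, and there were 3 libraries for each genotype and temperature, called RT WT and TN WT or RT *Txnip*-/- and TN *Txnip*-/-. The groups ask how housing temperature and loss of Txnip change the transcripts of BAT, and since the deletion is in all tissues, an effect within the fat cell and one from elsewhere in the body cannot be told apart. Whether each library is a separate mouse is not spelled out in the labels, so that p-values measure the spread between these libraries.

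*Txnip* itself was at 564, 581 and 694 TPM in RT WT and at 24.8, 26.9 and 35.4 in RT *Txnip*-/-. At TN it was at 1238, 1083 and 1072 TPM in WT and at 11, 14.4 and 10.5 in *Txnip*-/-, so that every library stood with its label. All 12 markers of brown adipocytes were detected in every library, with *Ucp1* at 3982 ± 333 TPM (SD, n = 3) in RT WT. The libraries held between 29.93 M and 47.44 M reads, and libraries of a group correlated with r from 0.985 to 0.993 over 12486 genes. Markers of cell types also differed between groups. The summed TPM of 8 macrophage markers ranged from 50.4 to 55.1 in RT WT, from 85.7 to 151 in RT *Txnip*-/-, from 116 to 208 in TN WT and from 338 to 463 in TN *Txnip*-/-. The sum of 5 fibroblast markers ranged from 183 to 227, from 218 to 268, from 303 to 412 and from 684 to 701 in the same order. The sum of 12 brown adipocyte markers ranged from 29710 to 30590, 25940 to 30930, 21350 to 23140 and 18280 to 20010 in that order. It was lower at TN in both genotypes and lower in *Txnip*-/- at TN, while at RT the genotypes overlapped. Not every marker moved with the sum. In *Txnip*-/- at RT, 5 stood higher and 7 lower than in WT, and at TN in WT, 3 stood higher and 9 lower than at RT. The 8 skeletal muscle markers summed to between 20.7 and 51.1 TPM in RT *Txnip*-/- and between 2.71 and 3.19 in RT WT. No marker of these lists was at 0 in all libraries. In bulk tissue, fewer cells of a type and less RNA per cell cannot be told apart.

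A few carriers made up most of the family. *Slc25a4* (Ant1) and *Slc25a5* (Ant2), the ADP/ATP carriers that exchange the product of ATP synthase for its substrate, had means of 493 and 406 TPM over the 12 libraries. They were followed by the phosphate carrier *Slc25a3* (278) and by *Slc25a39* (275), which imports glutathione. In RT WT the 44 carriers summed to 2963 ± 39.6 TPM (SD, n = 3), of which the 8 carriers of nucleotides and phosphate took 43.9% ± 0.844 and the 9 carriers of cofactors and pyrimidine nucleotides 29.0% ± 1.28. Carriers of iron and glutathione took 11.5% ± 0.303, those without an assigned substrate 6.40% ± 0.129, dicarboxylate carriers 5.2% ± 0.292 and amino acid carriers 3.88% ± 0.203. The 3 uncoupling-protein-like carriers summed to 6.92 ± 0.189 TPM. Each class had 1 or a few dominant members: *Slc25a11*, the oxoglutarate/malate carrier of the malate-aspartate shuttle, at a mean of 136 TPM, *Slc25a22*, the glutamate carrier, at 62.2, *Slc25a35*, without an assigned substrate, at 111, and *Slc25a30*, a relative of the uncoupling proteins, at 4.85.

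**Figure D1:**
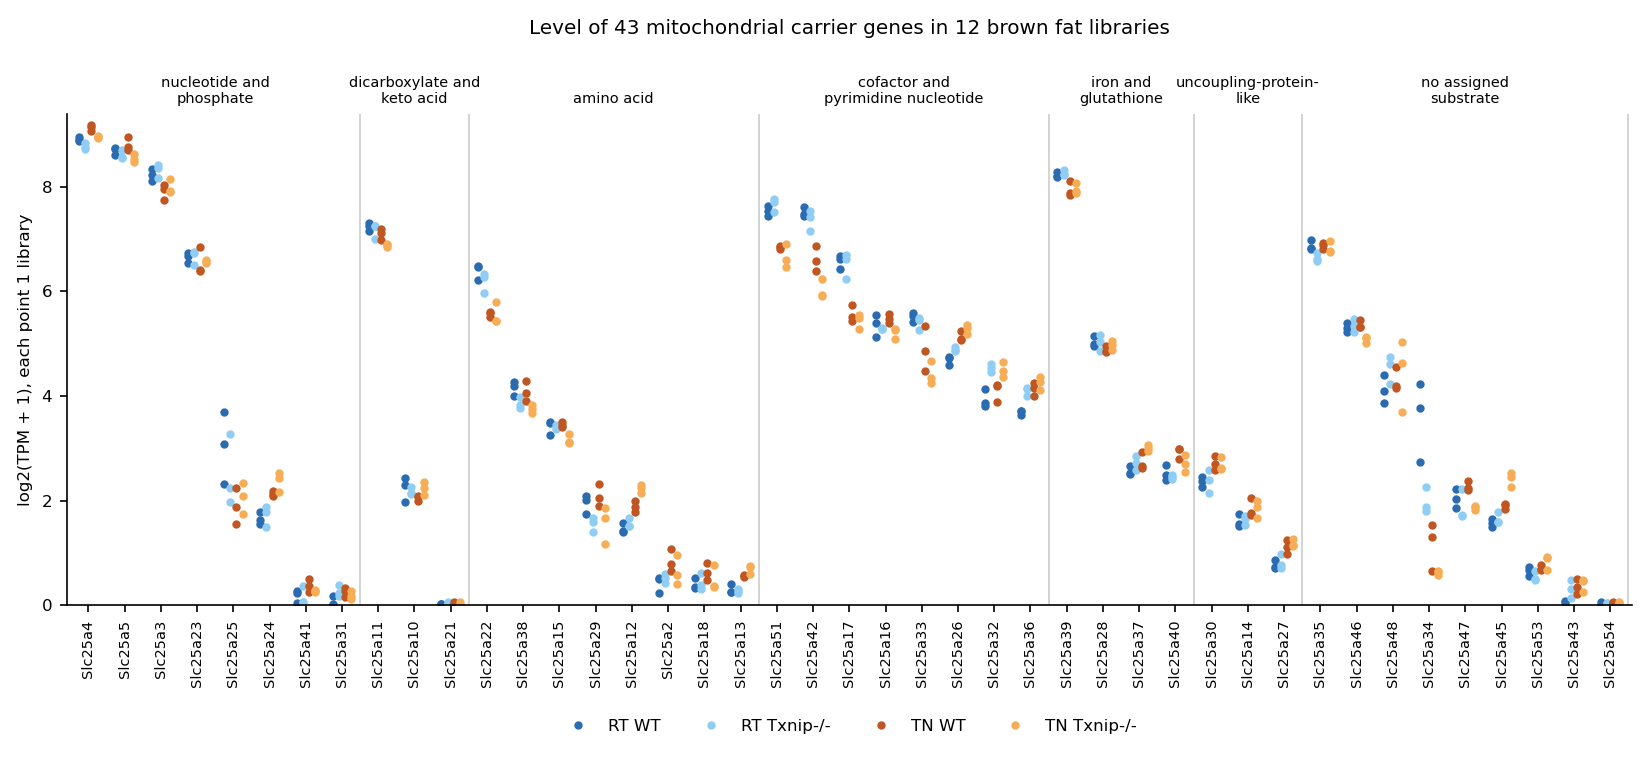
Level of 43 of the 44 carriers as log2(TPM + 1), each point 1 library, grouped by substrate class and ordered by mean level within a class, with colours for the 4 groups. *Slc25a4*, *Slc25a5*, *Slc25a3* and *Slc25a39* stood highest, and 10 carriers lay below a mean of 1 TPM.

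At TN the share of the classes in the family was not that of RT. The summed TPM of the 44 carriers was 2707 ± 93.0 in TN WT and 2511 ± 46.7 in TN *Txnip*-/-, against 2912 ± 135 in RT *Txnip*-/-, and in both genotypes every TN library lay below every RT library. Carriers of nucleotides and phosphate took 49.9% ± 1.99 of the family in TN WT and 48.8% ± 0.667 in TN *Txnip*-/-, against 43.0% ± 0.905 in RT *Txnip*-/-. Carriers of cofactors and pyrimidine nucleotides took 24.2% ± 1.87 and 24.4% ± 0.953 at TN, against 30.4% ± 0.766 in RT *Txnip*-/-. In TPM the sum of this second class went from 858 ± 26.7 to 656 ± 52.6 in WT and from 887 ± 62.3 to 611 ± 32.1 in *Txnip*-/-, whereas the first class was at 1299 ± 42.0 and 1351 ± 74.5 in WT and at 1253 ± 47.8 and 1225 ± 34.5 in *Txnip*-/-. These sums are given as a description, with no test.

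Carriers were called in both directions at TN. In limma fits on log2(TPM + 1), a gene was called when its adjusted p was under 0.05 and its log2 fold change lay beyond 0.32 in either direction (a fold limit). In WT mice, 14 of the 34 carriers tested were called at TN against RT, 7 higher and 7 lower. Over all genes, 37.8% were called, 31.4% higher and 6.39% lower, against 41.2%, 20.6% and 20.6% of the carriers. In *Txnip*-/- mice 10 carriers (29.4%) were called, 4 higher and 6 lower (11.8% and 17.6%), against 39.2% of all genes, 30.9% higher and 8.27% lower. The median log2 fold change of all genes was 0.18 in WT and 0.15 in *Txnip*-/-, and that of the carriers 0.046 and -0.065. After upper-quartile scaling, the calls were 4 higher and 9 lower in WT and 3 higher and 10 lower in *Txnip*-/-, against 23.0% of all genes higher and 9.65% lower in WT and 25.7% and 11.7% in *Txnip*-/-, and the medians of the carriers were -0.050 and -0.15. The share of carriers called in *Txnip*-/- was then 38.2%, against 37.3% of all genes, and without RT *Txnip*-/- replicate 1 it was 42.9% (15 carriers), against 41.0%, so that it was below that of all genes in TPM as deposited and not in these fits. Groups did not overlap in 17 carriers in WT (50.0%), against 57.5% of all genes, and in 20 in *Txnip*-/- (58.8%), against 61.1%. The temperature comparisons of the genotypes contrast different libraries. Both were fitted together over all libraries, with the same filter and the same estimate of spread, so their calls are not independent. All 10 carriers called in *Txnip*-/- were also called in WT with the same direction, which is 71.4% of the WT calls, and over all genes tested the genes called in both were 75.1% of the WT calls and 72.4% of the *Txnip*-/- calls. Cell type markers moved with temperature too. At TN, 7 of 8 macrophage, 5 of 5 fibroblast, 4 of 5 endothelial and 2 of 3 lymphocyte markers tested were called higher in WT, and all of those tested in *Txnip*-/-. The 5 endothelial markers summed to between 255 and 276 TPM in RT WT and between 338 and 426 in TN WT. Brown adipocyte markers were called lower in 5 of 12 and higher in 1 in WT and lower in 7 in *Txnip*-/-, where 6 skeletal muscle markers were called lower. The muscle markers passed the filter on low values (a mean of at least 1 TPM) mainly through RT *Txnip*-/-, where all 8 listed summed to a mean of 34.1 TPM, against 2.96 in RT WT, 7.99 in TN WT and 8.11 in TN *Txnip*-/-, so that their count adds no support. Over the RT libraries alone, 7 of the 8 macrophage and 2 of the 3 lymphocyte markers reached this filter. The rest passed it through the TN libraries, where they were higher, and add no support either. The part of these cell types in the carrier calls was not tested.

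**Figure D2:**
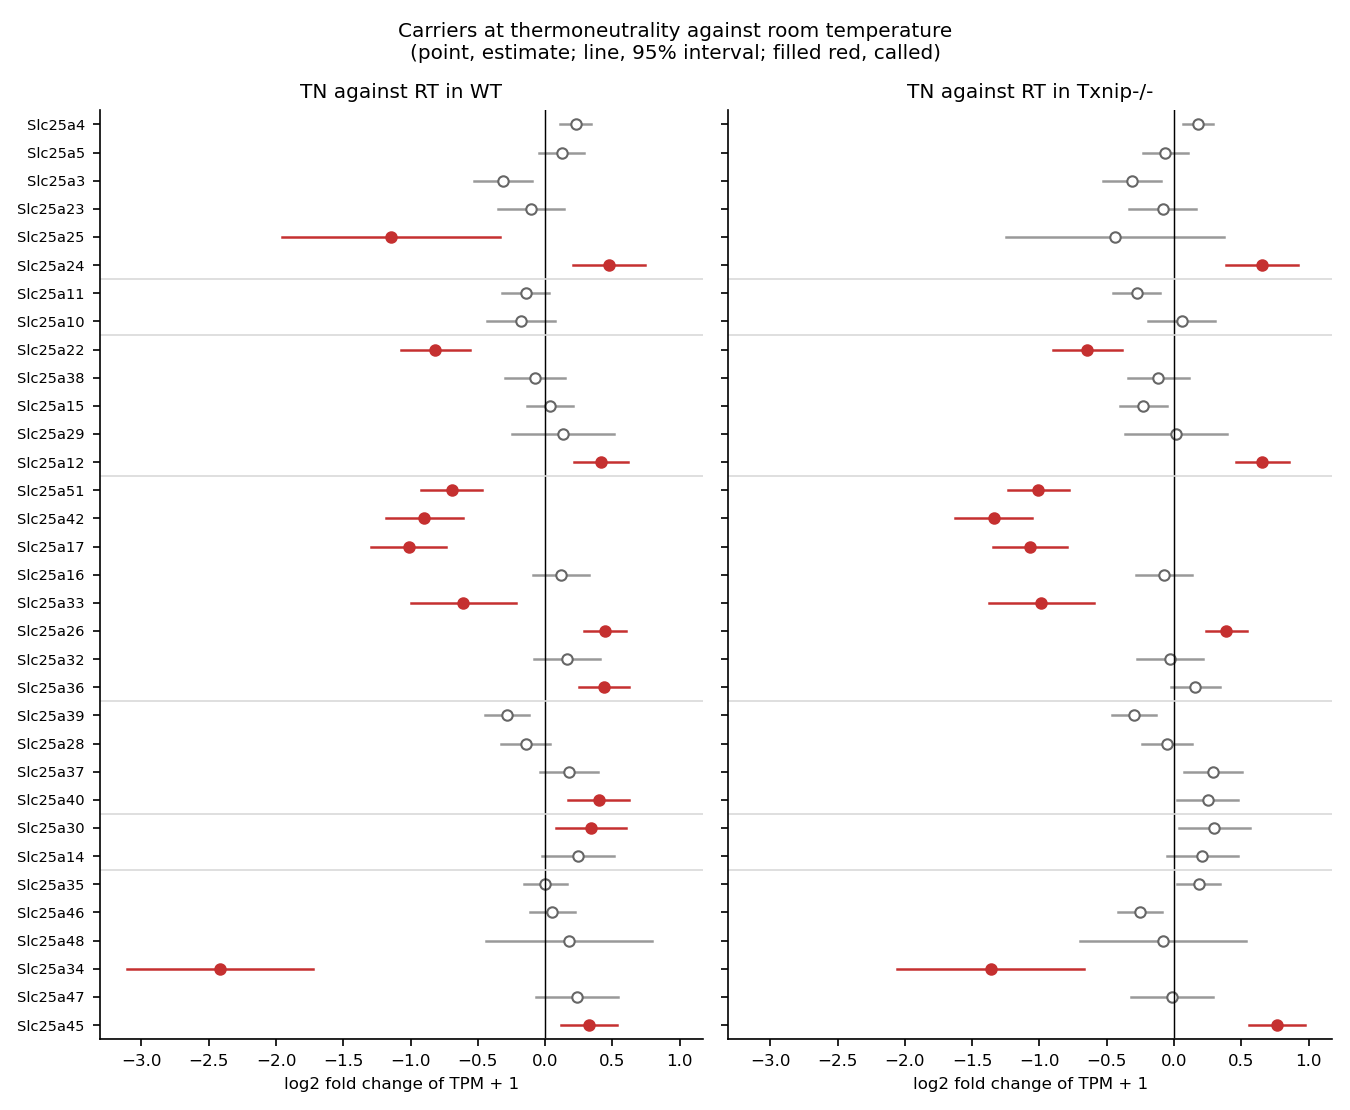
Log2 fold change of TPM + 1 at TN against RT for 33 of the 34 carriers tested in WT (left) and *Txnip*-/- mice (right), with 95% intervals from limma; filled red points were called, and grey lines part the substrate classes. The 10 carriers called in *Txnip*-/- were also called in WT, and *Slc25a34* had the lowest estimate in WT.

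The lowest carrier at TN relative to RT in WT was *Slc25a34*, a family member without an assigned substrate (chr4:141618825-141623834, minus strand, mm10). Its levels were 17.7, 12.6 and 5.7 TPM in RT WT and 1.89, 0.58 and 1.45 in TN WT. Mice lacking Txnip had it at 2.7, 3.77 and 2.5 TPM at RT and at 0.496, 0.565 and 0.546 at TN. Every RT library was above every TN library of its genotype, and the RT WT libraries differed among themselves by more than those of any other group. The log2 fold change was -2.42 ± 0.32 (SE), adjusted p = 0.000218 in WT and -1.36 ± 0.32 (SE), adjusted p = 0.00401 in *Txnip*-/-. In *Txnip*-/- this was close to *Slc25a42*, at -1.34, and the order of the pair turned after upper-quartile scaling, at -1.40 and -1.42, and without RT *Txnip*-/- replicate 1 or 2 or TN *Txnip*-/- replicate 3. The means were 9.17 times higher at RT in WT and 5.58 times higher in *Txnip*-/-. The gene passed the filter on low values through the RT libraries, where it was high, so that it adds no support to the counts above. With no filter its adjusted p was 0.000766 in WT and 0.00924 in *Txnip*-/- by limma. Near 1 TPM the log2(TPM + 1) scale understates a change.

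Promoter sequences from RefSeq (GRCm38.p6, the same assembly as mm10) matched 34 of the 44 carriers, and those of the other 10 were not matched. The 250 bases before the start are shown for 4 of them whose window holds no annotated exon: *Slc25a34*, the carrier with the lowest temperature estimate (chr4:141623835-141624084, minus strand), *Slc25a12* (chr2:71367756-71368005, minus strand) and *Slc25a24* (chr3:109122899-109123148, plus strand), which rose at TN in both genotypes, and *Slc25a47* (chr12:108850879-108851128, plus strand), which was lower in *Txnip*-/- at TN. Capitals mark matches to the motifs searched, each read 5′ to 3′ on the strand of the gene.
*Slc25a34*: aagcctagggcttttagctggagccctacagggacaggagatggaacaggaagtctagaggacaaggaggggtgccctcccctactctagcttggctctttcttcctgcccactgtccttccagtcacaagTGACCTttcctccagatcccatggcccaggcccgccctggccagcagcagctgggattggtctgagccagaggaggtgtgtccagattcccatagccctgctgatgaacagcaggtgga
*Slc25a12*: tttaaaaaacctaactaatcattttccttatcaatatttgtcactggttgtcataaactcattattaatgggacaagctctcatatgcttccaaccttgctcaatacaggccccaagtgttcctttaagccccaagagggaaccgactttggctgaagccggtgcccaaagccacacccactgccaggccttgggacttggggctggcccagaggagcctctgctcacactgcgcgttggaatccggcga
*Slc25a24*: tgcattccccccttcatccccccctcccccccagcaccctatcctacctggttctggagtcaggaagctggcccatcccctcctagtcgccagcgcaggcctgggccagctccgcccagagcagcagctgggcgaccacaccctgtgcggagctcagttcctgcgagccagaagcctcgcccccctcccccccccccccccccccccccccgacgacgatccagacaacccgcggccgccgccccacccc
*Slc25a47*: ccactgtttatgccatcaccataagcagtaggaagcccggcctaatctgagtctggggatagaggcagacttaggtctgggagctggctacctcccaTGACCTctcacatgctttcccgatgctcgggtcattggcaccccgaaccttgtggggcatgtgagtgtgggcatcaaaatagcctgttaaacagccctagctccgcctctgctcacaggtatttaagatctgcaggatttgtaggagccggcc
Motifs were searched on both strands. The nuclear receptor half-site AGGTCA was found in 4 of the 34 carrier promoters (11.8%), those of *Slc25a34*, *Slc25a39*, *Slc25a45* and *Slc25a47*, and in 13.8% of 27025 promoters. The E-box CACGTG was found before *Slc25a13*, *Slc25a31*, *Slc25a33* and *Slc25a36*, which is 11.8% against 6.05% of all, and the cyclic AMP response element TGACGTCA before *Slc25a36* alone, against 1.62% of all. The PPAR direct repeat of the half-site with 1 base between, the longer element TCAAGGTCA, the palindrome of nuclear respiratory factor and the amino acid response sequence TGATGNAA were in none of the 34, and in 0.037%, 0.366%, 0.781% and 3.53% of all promoters. The direct repeat and TCAAGGTCA both contain the half-site. The windows of *Slc25a12* and *Slc25a24* held none of these letters. A match is a string of letters and not a shown binding site.

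At TN, 3 carriers of coenzyme A or NAD fell in both genotypes. *Slc25a42*, the carrier that brings coenzyme A into the matrix (chr8:70184340-70212281, minus strand), was at 173, 194 and 178 TPM in RT WT and at 116, 82.9 and 95.2 in TN WT. *Txnip*-/- libraries stood at 141, 170.1 and 184 at RT and at 59.2, 59.9 and 74.7 at TN, without overlap in either genotype. Its log2 fold change was -0.90 ± 0.13 (SE), adjusted p = 0.000374 in WT and -1.34 ± 0.13 (SE), adjusted p = 2.33e-05 in *Txnip*-/-. *Slc25a17*, a peroxisomal carrier of coenzyme A, FAD and NAD (chr15:81318921-81360765, minus strand), was at 97.6, 101 and 85.2 TPM in RT WT and 52.6, 42 and 44.6 in TN WT, and at 74, 102 and 96.9 at RT and 37.7, 45.8 and 44.2 at TN in *Txnip*-/- mice. Its fold change was nearly equal in both genotypes, -1.01 ± 0.13 (SE), adjusted p = 0.000173 in WT and -1.07 ± 0.13 (SE), adjusted p = 6.03e-05 in *Txnip*-/-. *Slc25a51*, the mitochondrial NAD carrier (chr4:45395924-45408766, minus strand), was at 173, 185 and 197 TPM in RT WT and 115, 111 and 115 in TN WT. In *Txnip*-/- mice its levels were 182, 216 and 209.7 at RT and 95.9, 87.5 and 119 at TN. Again no TN library reached the lowest RT library, with a log2 fold change of -0.70 ± 0.10 (SE), adjusted p = 0.000375 in WT and -1.01 ± 0.10 (SE), adjusted p = 2.64e-05 in *Txnip*-/-. The exons of *Slc25a51* hold a microRNA gene on the same strand, *Gm25692*, over 125 bases.

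Not every cofactor carrier fell. *Slc25a26*, which takes S-adenosylmethionine into the matrix for methylation, rose from 25.9, 25.7 and 23 TPM to 37.1, 32.9 and 32.6 in WT and from 28.5, 28.1 and 29.5 to 38.3, 39.8 and 35.6 in *Txnip*-/-. Its log2 fold change was 0.45 ± 0.071 (SE), adjusted p = 0.000558 in WT and 0.39 ± 0.071 (SE), adjusted p = 0.000872 in *Txnip*-/-, and the second call was lost after upper-quartile scaling, at 0.31. *Slc25a16*, also linked to coenzyme A, was at 45.7, 41 and 34 TPM in RT WT and 46.2, 40.9 and 43.3 in TN WT, and at 38.1, 37.7 and 38.5 at RT and 37.9, 33.1 and 37.4 at TN in *Txnip*-/-, and was not called.

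The pyrimidine nucleotide carriers, which supply nucleotides for mitochondrial DNA and RNA, moved apart. *Slc25a33* was at 45.3, 47.1 and 41.5 TPM in RT WT and 21.4, 28.2 and 39.7 in TN WT. The *Txnip*-/- values were 37.3, 43.1 and 44.3 at RT and 17.9, 19.3 and 24.4 at TN. All TN libraries lay below the RT libraries of their genotype, by -0.61 ± 0.18 (SE), adjusted p = 0.0146 on the log2 scale in WT and -0.99 ± 0.18 (SE), adjusted p = 0.000841 in *Txnip*-/-. Without replicate 1 of TN WT, the lowest of its group, the WT call was lost at -0.40. *Slc25a36* was at 12.2, 12.2 and 11.4 TPM in RT WT and 16.8, 17.9 and 15 in TN WT, and was called higher at 0.44 ± 0.084 (SE), adjusted p = 0.00154. In mice without Txnip it was at 15, 16.5 and 16.7 at RT and 18.3, 16.3 and 19.7 at TN TPM, with overlap and with 0.16 ± 0.084 (SE), adjusted p = 0.133.

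**Figure D3:**
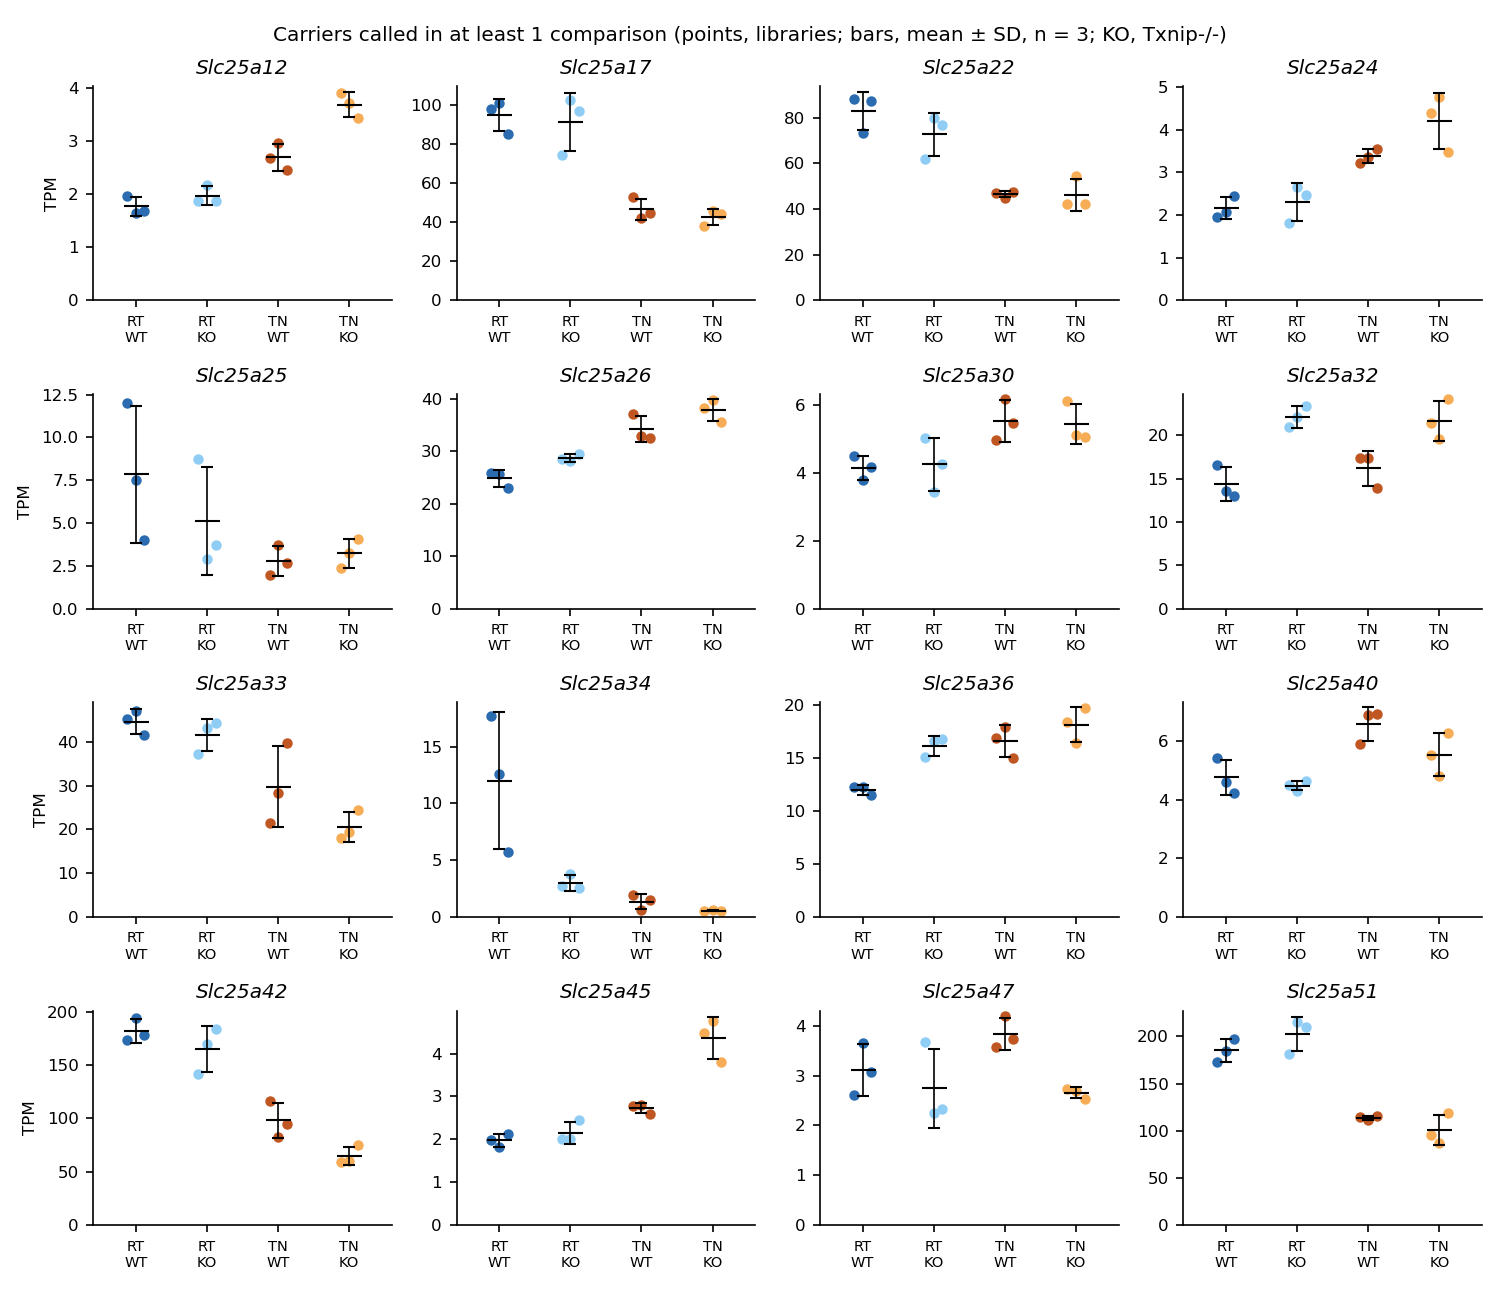
TPM per library of the 16 carriers called in at least 1 of the comparisons, with mean ± SD (n = 3), at RT and TN in WT and *Txnip*-/- (KO) mice, each panel on its own axis from 0. *Slc25a17*, *Slc25a22*, *Slc25a34*, *Slc25a42* and *Slc25a51* were lower in every TN library than in any RT library of the same genotype, and *Slc25a12*, *Slc25a24*, *Slc25a26* and *Slc25a45* higher.

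Among amino acid carriers, 1 fell and 1 rose at TN in both genotypes. *Slc25a22*, the glutamate carrier that imports its substrate with protons (chr7:141429749-141435375, minus strand), was at 88.1, 73.2 and 87.4 TPM in RT WT and 47.1, 44.9 and 47.6 in TN WT. Levels in *Txnip*-/- were 62.1, 79.7 and 76.8 at RT and 42.3, 54.5 and 42.3 at TN. It was called lower in both genotypes, at -0.82 ± 0.12 (SE), adjusted p = 0.000325 in WT and -0.64 ± 0.12 (SE), adjusted p = 0.000886 in *Txnip*-/-. *Slc25a12* (aralar), the aspartate/glutamate carrier of the malate-aspartate shuttle (chr2:71274270-71367755, minus strand), was a weakly expressed gene that went the other way. It was at 1.97, 1.64 and 1.69 TPM in RT WT and 2.69, 2.96 and 2.45 in TN WT, and at 1.87, 2.17 and 1.87 at RT and 3.9, 3.72 and 3.43 at TN in *Txnip*-/-. No library of RT reached the TN range of its genotype, and the log2 fold change was 0.42 ± 0.091 (SE), adjusted p = 0.00319 in WT and 0.66 ± 0.091 (SE), adjusted p = 0.000157 in *Txnip*-/-. The other amino acid carriers tested, *Slc25a15* for ornithine, *Slc25a29* for basic amino acids and *Slc25a38* for glycine, were not called by temperature.

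The ATP-Mg/phosphate carriers set the adenine nucleotide pool of the matrix and are regulated by calcium. *Slc25a24* was at 1.95, 2.08 and 2.44 TPM in RT WT and 3.23, 3.37 and 3.55 in TN WT, and at 1.81, 2.66 and 2.46 at RT and 4.39, 4.76 and 3.48 at TN in *Txnip*-/-. It was called higher at TN in both genotypes, at 0.48 ± 0.12 (SE), adjusted p = 0.00762 in WT and 0.66 ± 0.12 (SE), adjusted p = 0.00104 in *Txnip*-/- (chr3:109123149-109168409, plus strand). *Slc25a25* had a wide spread within RT WT, with 12, 7.49 and 4.02 TPM in RT WT and 1.94, 3.72 and 2.69 in TN WT, and 8.73, 2.9 and 3.73 at RT and 2.34, 3.26 and 4.05 at TN in *Txnip*-/-. It was called lower in WT at -1.15 ± 0.37 (SE), adjusted p = 0.0231, a call that was lost without any 1 of RT WT replicates 1 and 2 and TN WT replicates 1 and 3, with values from -1.502 to -0.81 over all settings. In *Txnip*-/- the groups overlapped, with -0.44 ± 0.37 (SE), adjusted p = 0.338. *Slc25a23*, the main gene of this kind in BAT, was at 105, 102 and 91.9 TPM in RT WT, 114, 84 and 82.9 in TN WT, 107, 89.4 and 105 in RT *Txnip*-/- and 95.5, 95.4 and 92.6 in TN *Txnip*-/-, and was not called.

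In TPM as deposited, *Slc25a4*, *Slc25a5*, *Slc25a3* and *Slc25a39* moved by less than the fold limit. After upper-quartile scaling, *Slc25a3* and *Slc25a39* were called lower in both genotypes. Their values were then -0.42 and -0.39 for *Slc25a3* and -0.38 and -0.38 for *Slc25a39* in WT and *Txnip*-/-. Both were also called in at least 1 fit in each genotype with a library left out. *Slc25a4* was at 492, 475 and 469 TPM in RT WT and 536, 563 and 584 in TN WT, and at 422, 457 and 433 at RT and 499.7, 490.5 and 494 at TN in *Txnip*-/-. All TN libraries of a genotype were above its RT libraries, with 0.23 ± 0.052 (SE), adjusted p = 0.00415 in WT and 0.18 ± 0.052 (SE), adjusted p = 0.0141 in *Txnip*-/-, and after upper-quartile scaling with adjusted p-values of 0.0923 and 0.18 by limma. *Slc25a5* was at 419.9, 388 and 427 TPM in RT WT and 416, 435 and 497 in TN WT, with 0.12 ± 0.077 (SE), adjusted p = 0.203, and at 374, 417 and 378 at RT and 371, 353 and 395 at TN in *Txnip*-/-. *Slc25a3* was at 299, 277 and 321 TPM in RT WT and 213, 248 and 261 in TN WT, and at 287, 326 and 339 at RT and 284, 242 and 239.6 at TN in *Txnip*-/-. Its adjusted p passed the threshold in both genotypes, with -0.32 ± 0.098 (SE), adjusted p = 0.0195 in WT and -0.31 ± 0.098 (SE), adjusted p = 0.0195 in *Txnip*-/-, just short of the fold limit. *Slc25a39* was at 309, 292 and 294 TPM in RT WT and 234, 229 and 274 in TN WT, and at 299.96, 301 and 318 at RT and 243, 269.8 and 236 at TN in *Txnip*-/-, with -0.28 ± 0.075 (SE), adjusted p = 0.00896 and -0.30 ± 0.075 (SE), adjusted p = 0.0063. In WT, 17 of the 34 carriers had an adjusted p under 0.05, and 17 did in *Txnip*-/-, when no fold limit was set (50.0% in both), against 50.3% and 51.4% of all genes.

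Dicarboxylate and iron carriers were not called by temperature, but in *Txnip*-/- *Slc25a11* and *Slc25a37* came close to the fold limit. *Slc25a11* was called after upper-quartile scaling and without RT *Txnip*-/- replicate 1, both at -0.36. *Slc25a37* was called with log2(TPM + 0.1), at 0.33, and without that replicate, at 0.36. With adjusted p alone, both passed. *Slc25a11* was at 158, 151 and 142 TPM in RT WT and 145, 125 and 138 in TN WT, and at 126, 151 and 150.4 at RT and 114, 119 and 118 at TN in *Txnip*-/-, where its fold change was -0.28 ± 0.079 (SE), adjusted p = 0.0121. *Slc25a10*, the dicarboxylate carrier, was low, at 4.39, 3.9 and 2.92 TPM in RT WT, 3.44, 3.78 and 3.38 in RT *Txnip*-/-, 3.19, 3.27 and 2.99 in TN WT and 3.33, 3.73 and 4.12 in TN *Txnip*-/-. *Slc25a37* (mitoferrin 1), which brings iron into mitochondria, was at 4.75, 5.3 and 4.68 TPM in RT WT, 6.26, 4.99 and 5.56 in RT *Txnip*-/-, 5.37, 6.61 and 5.15 in TN WT and 7.01, 6.77 and 7.34 in TN *Txnip*-/-, with 0.29 ± 0.099 (SE), adjusted p = 0.0292 in *Txnip*-/-. *Slc25a28* (mitoferrin 2) was the higher of the iron carriers, at 34.5, 30.1 and 31 TPM in RT WT, 31.8, 28.1 and 35.1 in RT *Txnip*-/-, 30.1, 27.9 and 28.1 in TN WT and 30.3, 32.3 and 28.6 in TN *Txnip*-/-. *Slc25a40*, like *Slc25a39* needed for glutathione import, was at 5.43, 4.59 and 4.24 TPM in RT WT and 5.91, 6.9 and 6.93 in TN WT and was called higher at 0.40 ± 0.10 (SE), adjusted p = 0.00816, but not after upper-quartile scaling, at 0.31. Without Txnip it was at 4.48, 4.31 and 4.64 at RT and 5.51, 4.82 and 6.29 at TN TPM, with 0.25 ± 0.10 (SE), adjusted p = 0.0631.

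Carriers near the uncoupling proteins or without an assigned substrate completed the set. *Slc25a30* was at 4.5, 3.79 and 4.18 TPM in RT WT and 4.96, 6.19 and 5.47 in TN WT, called higher at 0.34 ± 0.12 (SE), adjusted p = 0.0326, and at 5.03, 3.46 and 4.28 at RT and 6.12, 5.12 and 5.08 at TN in *Txnip*-/-, with 0.30 ± 0.12 (SE), adjusted p = 0.0536. The WT call was lost without RT WT replicate 2 or 3 or TN WT replicate 2 or 3 and after upper-quartile scaling. *Slc25a45* was at 1.98, 1.82 and 2.12 TPM in RT WT and 2.79, 2.8 and 2.59 in TN WT, and at 2.02, 2 and 2.45 at RT and 4.49, 4.77 and 3.81 at TN in *Txnip*-/-. It was called higher in both, at 0.33 ± 0.095 (SE), adjusted p = 0.0146 in WT and 0.76 ± 0.095 (SE), adjusted p = 8.18e-05 in *Txnip*-/-, and the WT call was lost after upper-quartile scaling, at 0.25, and without RT WT replicate 2 or TN WT replicate 1 or 2. *Slc25a35* was at 111, 112 and 125 TPM in RT WT, 97.4, 94.7 and 106 in RT *Txnip*-/-, 117, 121 and 111 in TN WT and 123, 107 and 109 in TN *Txnip*-/-, and was not called in any comparison.

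Loss of Txnip changed few carriers at RT. In RT *Txnip*-/- against RT WT, 2 of 34 carriers were called, both higher, which is 5.88%, against 1.49% of all 11980 genes tested. *Slc25a32*, a carrier of folate and FAD (chr15:39094191-39112716, minus strand), was at 16.6, 13.6 and 13 TPM in RT WT and 20.9, 22.1 and 23.4 in RT *Txnip*-/-. The groups did not overlap, and the log2 fold change was 0.59 ± 0.10 (SE), adjusted p = 0.0436. *Slc25a36*, described above, was at 12.2, 12.2 and 11.4 TPM in WT and 15, 16.5 and 16.7 in *Txnip*-/-, with 0.40 ± 0.072 (SE), adjusted p = 0.0488. Both adjusted p-values lay close to the threshold. The call of *Slc25a32* was lost in 7 of 13 other settings, among them without RT WT replicate 2 or 3 and without any 1 of the RT *Txnip*-/- replicates, and that of *Slc25a36* in 10, among them without any 1 library. Leaving out a library gave 0 or 1 carrier calls, and the calls over all genes, 178 in all libraries, fell to 2 without RT WT replicate 2, 31 without RT WT replicate 1, 159 without RT WT replicate 3 and 33, 87 and 25 without RT *Txnip*-/- replicates 1, 2 and 3. In 8 of 34 carriers (23.5%) the groups did not overlap, against 22.6% of all genes.

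The largest difference between genotypes at RT was in *Slc25a34*, which was not called in the RT libraries but was called without RT WT replicate 3 and with all 12 libraries in the fit. It was at 17.7, 12.6 and 5.7 TPM in RT WT and 2.7, 3.77 and 2.5 in RT *Txnip*-/-, with all WT libraries above all *Txnip*-/- libraries and -1.59 ± 0.35 (SE), adjusted p = 0.0783. *Slc25a29* and *Slc25a38* were likewise without overlap but not called. *Slc25a29* was at 2.37, 3.25 and 3.06 TPM in WT and 1.66, 2.18 and 2.01 in *Txnip*-/-, with -0.40 ± 0.13 (SE), adjusted p = 0.192, and *Slc25a38* at 15.1, 17.4 and 18.3 TPM in WT and 13.3, 12.7 and 14.8 in *Txnip*-/-, with -0.30 ± 0.094 (SE), adjusted p = 0.191. *Slc25a4* stood at -0.13 ± 0.052 (SE), adjusted p = 0.275. Of 8 skeletal muscle markers, the 6 that passed the filter on low values were called higher in RT *Txnip*-/-, the group through which all of them but *Mylpf* passed it, so that their count adds no support. Also called higher were 3 of 7 macrophage markers tested. Called lower were 1 of 12 brown adipocyte and 1 of 4 Schwann and nerve markers, the latter *S100b*. At TN, *S100b* was again called lower in *Txnip*-/-, while 3 of these 4 stood higher than in WT. The part of these markers in the carrier values was not tested.

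At TN, 3 of 34 carriers were called in *Txnip*-/- against WT, 1 higher and 2 lower, which is 8.82%, against 8.66% of all 12891 genes (6.49% higher and 2.17% lower). Here *Slc25a27* entered the 34 and *Slc25a34* dropped out, by their means at TN. *Slc25a42* was at 116, 82.9 and 95.2 TPM in TN WT and 59.2, 59.9 and 74.7 in TN *Txnip*-/-, a log2 fold change of -0.59 ± 0.14 (SE), adjusted p = 0.0356. The coenzyme A carrier was thus lowest in the *Txnip*-/- libraries at TN, which did not overlap with any other group. *Slc25a45* was called higher, from 2.79, 2.8 and 2.59 to 4.49, 4.77 and 3.81 TPM, at 0.52 ± 0.099 (SE), adjusted p = 0.0188. *Slc25a47*, a carrier known mainly from liver, was called lower, from 3.58, 4.19 and 3.73 to 2.73, 2.7 and 2.54 TPM, at -0.40 ± 0.091 (SE), adjusted p = 0.0344. At RT these 3 carriers were not called, with -0.15 ± 0.10 (SE), adjusted p = 0.535 for *Slc25a42*, 0.084 ± 0.10 (SE), adjusted p = 0.75 for *Slc25a45* and -0.15 ± 0.17 (SE), adjusted p = 0.722 for *Slc25a47*. Each of the 3 calls was lost when some single library was left out: that of *Slc25a42* without TN WT replicate 1 or 3 or TN *Txnip*-/- replicate 1 or 2, that of *Slc25a45* without TN WT replicate 3 or TN *Txnip*-/- replicate 1 or 2, and that of *Slc25a47* without any 1 of the 6. The count then ran from 0 to 2, and that over all genes, 1116 in all libraries, from 456 without TN *Txnip*-/- replicate 1 to 1005 without TN *Txnip*-/- replicate 3.

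**Figure D4:**
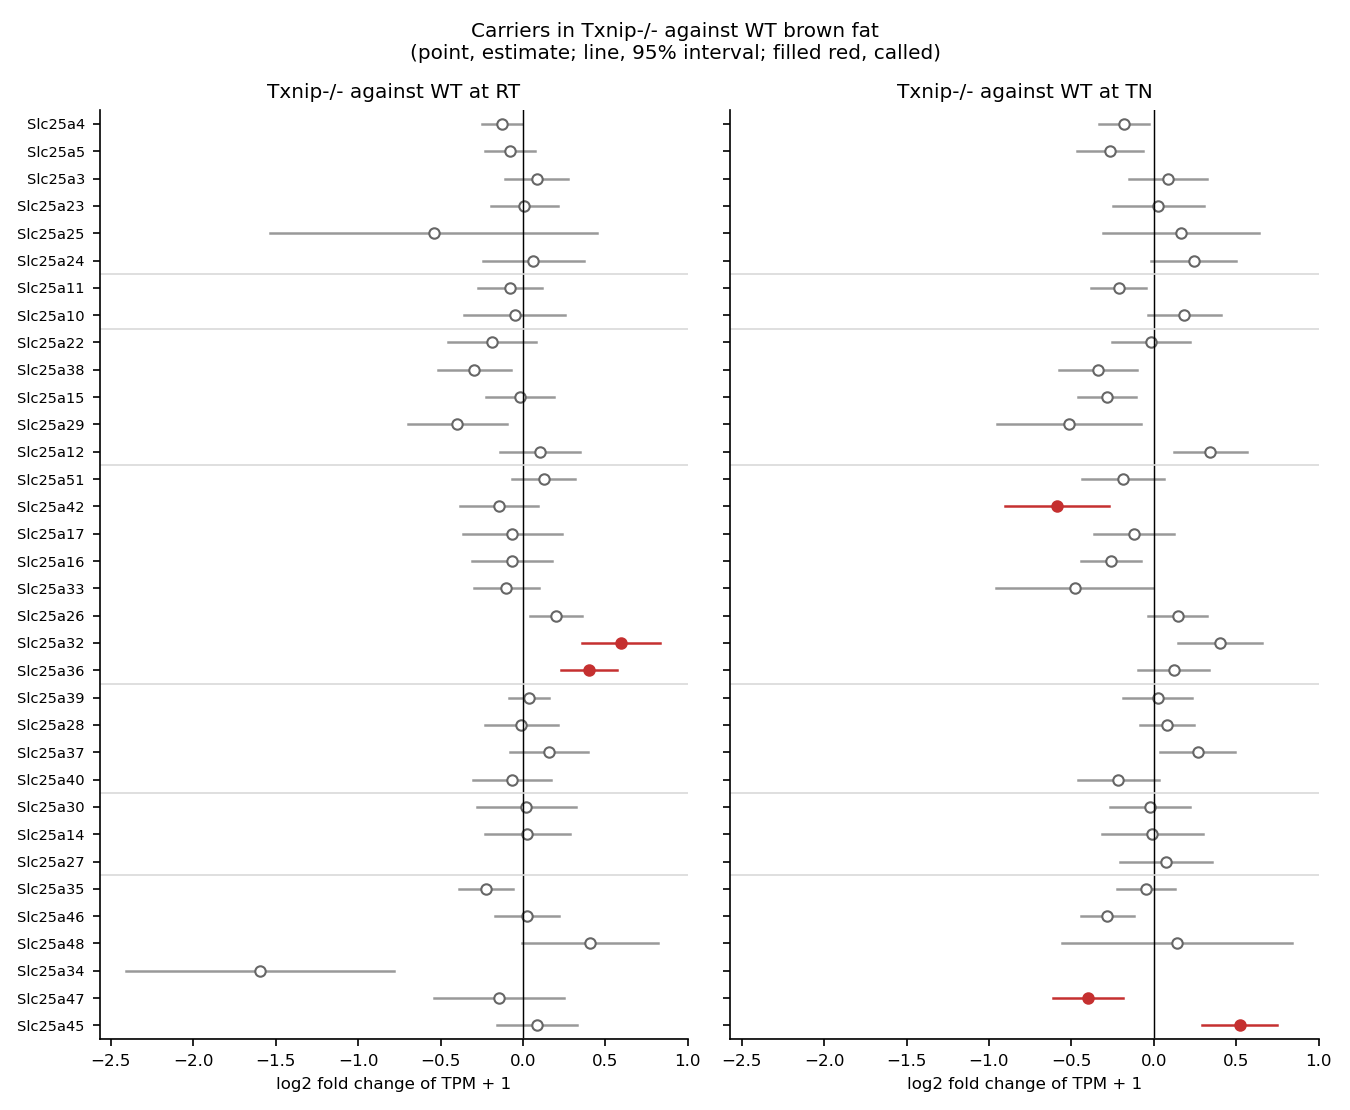
Log2 fold change of TPM + 1 in *Txnip*-/- against WT for carriers tested at RT (left) and at TN (right), with 95% intervals from limma; filled red points were called. *Slc25a32* and *Slc25a36* were called at RT, and *Slc25a42*, *Slc25a45* and *Slc25a47* at TN, and *Slc25a34* is not plotted at TN, where its mean was below 1 TPM.

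Several other carriers separated the genotypes at TN without a call. In 15 of 34 (44.1%) the groups did not overlap, against 31.1% of all genes, and this count includes the called *Slc25a42*, *Slc25a45* and *Slc25a47*. *Slc25a46*, an outer membrane protein that shapes mitochondria, had an adjusted p under the threshold but a small fold change, -0.28 ± 0.070 (SE), adjusted p = 0.0434. *Slc25a32* was again above WT, with 17.4, 17.3 and 13.9 TPM in TN WT and 21.4, 19.6 and 24.2 in TN *Txnip*-/-, at 0.40 ± 0.11 (SE), adjusted p = 0.0604. *Slc25a12* was at 2.69, 2.96 and 2.45 TPM in WT and 3.9, 3.72 and 3.43 in *Txnip*-/-, with 0.34 ± 0.096 (SE), adjusted p = 0.0646. *Slc25a5* was at 416, 435 and 497 TPM in WT and 371, 353 and 395 in *Txnip*-/-, with -0.26 ± 0.087 (SE), adjusted p = 0.102, and *Slc25a4* stood at -0.18 ± 0.066 (SE), adjusted p = 0.131. Of the amino acid carriers, *Slc25a15* stood at -0.28 ± 0.077 (SE), adjusted p = 0.057, *Slc25a38* at -0.34 ± 0.10 (SE), adjusted p = 0.0824 and *Slc25a29* at -0.51 ± 0.19 (SE), adjusted p = 0.136. In the pyrimidine nucleotide carriers the groups overlapped, with -0.48 ± 0.21 (SE), adjusted p = 0.191 for *Slc25a33* and 0.12 ± 0.094 (SE), adjusted p = 0.48 for *Slc25a36*. *Slc25a34* was not tested at TN with the filter, and with all genes kept its log2 fold change was -0.54 with an adjusted p of 0.241. Here all 8 macrophage markers and all 5 fibroblast markers were called higher and 6 of 12 brown adipocyte markers lower in *Txnip*-/-, and their part in the carrier values was not tested. TN WT is the reference of this comparison and one arm of the temperature comparison in WT, so the values are not independent.

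Whether the effect of genotype differed between temperatures was tested as an interaction. No carrier of 34 passed by limma, with adjusted p-values from 0.248 to 0.993, and 6 had an unadjusted p under 0.05. Over all genes, 1 of 12486 was called (0.00801%), and 12.6% had an unadjusted p under 0.05. The lowest adjusted p was that of *Slc25a45*, with an interaction of 0.44 on the log2 scale (95% interval 0.14 to 0.73). That of *Slc25a34* was 1.05 (95% interval 0.072 to 2.03), and that of *Slc25a42* -0.44 (95% interval -0.85 to -0.036). None of these 3 passed after adjustment, with adjusted p-values of 0.248, 0.363 and 0.358 by limma.

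Carriers that move like substrates were also compared within each library, as the ratio of their TPM. Of 10 pairs, 8 had both members at a mean of at least 1 TPM. The difference in log2((TPM + 1)/(TPM + 1)) was averaged over the genotypes and tested by an exact two-sided permutation test with 400 relabellings, adjusted over the 8 pairs (smallest unadjusted p possible 0.005). With 1 TPM added, this difference depends on library scaling where a member is at a few TPM, as in Slc25a24/Slc25a25. By temperature, 6 of 8 ratios shifted. Slc25a33/Slc25a36 went from 3.73 ± 0.121 (SD, n = 3) in RT WT to 1.83 ± 0.725 in TN WT and from 2.58 ± 0.0902 to 1.14 ± 0.139 in *Txnip*-/-, a mean log2 difference of -1.10 (exact permutation, adjusted p = 0.01). Slc25a42/Slc25a16 went from 4.59 ± 0.739 to 2.25 ± 0.246 in WT and from 4.33 ± 0.55 to 1.79 ± 0.218 in *Txnip*-/-, a difference of -1.14 (exact permutation, adjusted p = 0.01). Slc25a39/Slc25a40 fell from 63.3 ± 6.19 to 37.5 ± 3.70 in WT and from 68.4 ± 1.5 to 45.9 ± 9.36 in *Txnip*-/-, a difference of -0.61 (exact permutation, adjusted p = 0.01). Slc25a37/Slc25a28 rose by 0.33 (exact permutation, adjusted p = 0.01), with 0.155 ± 0.0194 at RT and 0.1996 ± 0.0326 at TN in WT and 0.178 ± 0.0191 and 0.232 ± 0.0234 in *Txnip*-/-. The ratio of the ATP-Mg/phosphate carriers Slc25a24/Slc25a25 went from 0.349 ± 0.231 in RT WT to 1.30 ± 0.382 in TN WT and from 0.594 ± 0.3585 to 1.397 ± 0.51 in *Txnip*-/-, by 1.36 over both genotypes (exact permutation, adjusted p = 0.0133). Its RT and TN libraries did not overlap in WT but did in *Txnip*-/-, with 0.207 to 0.915 at RT and 0.86 to 1.87 at TN. That of the ADP/ATP carriers Slc25a4/Slc25a5 went from 1.17 ± 0.0619 to 1.253 ± 0.0674 in WT and from 1.12 ± 0.0251 to 1.33 ± 0.0713 in *Txnip*-/-, by 0.17 (exact permutation, adjusted p = 0.0133), and here the libraries overlapped in WT and not in *Txnip*-/-. Slc25a10/Slc25a11 and Slc25a23/Slc25a25 did not pass (exact permutation, adjusted p = 0.13 and 0.08).

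By genotype, 1 of the 8 ratios shifted. Slc25a33/Slc25a36 was lower in *Txnip*-/- at both temperatures, with a log2 difference of -0.50 at RT, -0.60 at TN and -0.55 on average (exact permutation, adjusted p = 0.04). In RT WT the ratio was 3.71, 3.86 and 3.62 in the libraries, in RT *Txnip*-/- 2.48, 2.61 and 2.65, in TN WT 1.27, 1.58 and 2.65 and in TN *Txnip*-/- 0.978, 1.18 and 1.24. The genotypes did not overlap at either temperature. This shift was lost without TN WT replicate 3 or TN *Txnip*-/- replicate 1 or 2, which left 0 pairs, and without TN *Txnip*-/- replicate 3 there were 2. The other 7 ratios had adjusted p-values from 0.144 to 0.725 (exact permutation). Within 1 temperature, an exact permutation test of 3 against 3 libraries cannot go below p = 0.1, so no test was made there.

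**Figure D5:**
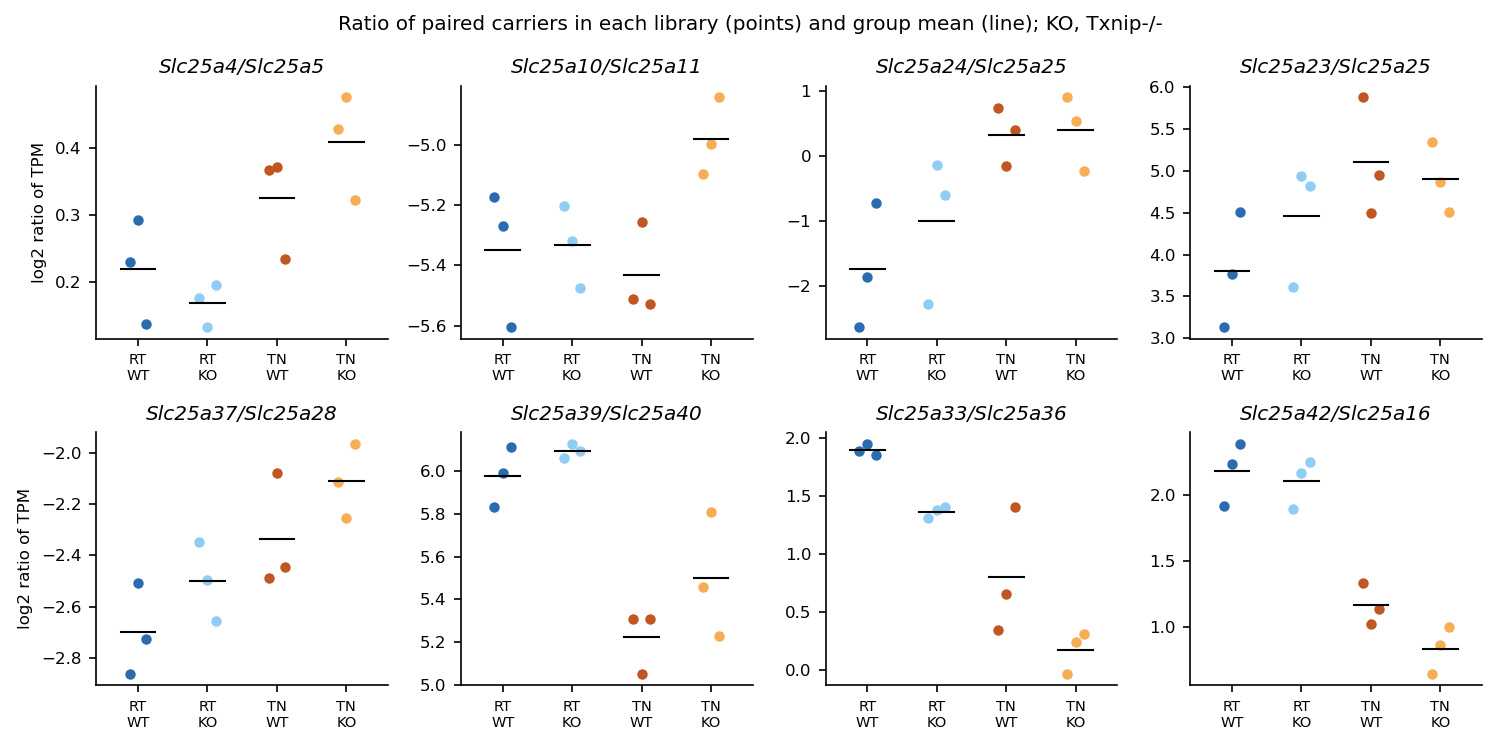
Log2 ratio of TPM for 8 pairs of carriers with like substrates, each point 1 library and each line a group mean, at RT and TN in WT and *Txnip*-/- (KO) mice. Slc25a33/Slc25a36 stepped down from RT WT to TN *Txnip*-/-, and Slc25a42/Slc25a16 and Slc25a39/Slc25a40 were lower in every TN library than in any RT library.

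Other routes through the mitochondrial membranes were measured beside the carriers. Both subunits of the pyruvate carrier fell at TN. *Mpc1* was at 397 ± 43.6 TPM (SD, n = 3) in RT WT and 259 ± 48.2 in TN WT, with -0.63 ± 0.12 (SE), adjusted p = 0.00172, and *Mpc2* at 844 ± 89.5 and 496 ± 22.1, with -0.76 ± 0.078 (SE), adjusted p = 7.02e-05. In *Txnip*-/- their log2 fold changes were -0.86 ± 0.12 (SE), adjusted p = 0.000186 and -0.94 ± 0.078 (SE), adjusted p = 1.08e-05. Of the relatives under other symbols, *Ucp1* was called lower at TN in both genotypes, at -2.34 ± 0.28 (SE), adjusted p = 0.000148 in WT and -3.64 ± 0.28 (SE), adjusted p = 8.42e-06 in *Txnip*-/-. *Ucp3* was also lower in both, at -2.34 and -0.91, and *Ucp2* higher, at 0.36 and 0.83. *Mtch2*, an insertase of the outer membrane, was lower at -0.48 and -0.65. None of the 3 outer membrane channels of the Vdac family was called in any comparison. The carriers reach the inner membrane through Tom70, the small Tim proteins and the Tim22 complex. Of 16 genes of this import path, 5 were called lower and none higher at TN in WT, and 11 lower and none higher in *Txnip*-/-, against 6.39% of all genes lower and 31.4% higher in WT and 8.27% and 30.9% in *Txnip*-/-. The medians of the list were -0.24 and -0.48. The lowest were *Timm8a1*, a small Tim protein, at -0.53 in WT and -0.75 in *Txnip*-/-, and *Timm9*, at -0.49 and -0.95. *Timm22*, the channel of the complex, was at -0.44 and -0.61.

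By genotype, 1 of the 42 genes tested in these lists was called at RT (2.38%) and 7 of 43 at TN (16.3%), against 1.49% and 8.66% of all genes. The uncoupling proteins were called at TN and not at RT, and none passed the interaction test, so that a difference between the temperatures is not shown. *Ucp1* was lower in *Txnip*-/-, at 814 ± 280.5 TPM in TN WT and 249 ± 92.7 in TN *Txnip*-/-, with -1.72 ± 0.31 (SE), adjusted p = 0.0151. *Ucp2* was higher, at 50.1 ± 3.99 and 99.9 ± 13.9 TPM, with 0.98 ± 0.11 (SE), adjusted p = 0.00383, and *Ucp3* at 23.2 ± 1.02 and 53.8 ± 9.25 TPM, with 1.17 ± 0.12 (SE), adjusted p = 0.00351. *Abcb8*, an ABC transporter of the inner membrane, was lower in *Txnip*-/- at both temperatures, with -0.44 ± 0.077 (SE), adjusted p = 0.0472 at RT and -0.56 ± 0.080 (SE), adjusted p = 0.00832 at TN. At TN, *Tomm40*, the pore of the outer membrane, was lower at -0.40 ± 0.090 (SE), adjusted p = 0.034, the ion exchanger gene *Letm1* lower at -0.57 ± 0.069 (SE), adjusted p = 0.00542 and *Slc8b1*, the sodium/calcium exchanger, higher at 0.63 ± 0.099 (SE), adjusted p = 0.00998. *Letm1* also fell with temperature, at -0.84 in WT and -0.99 in *Txnip*-/-, while *Slc8b1* and *Mcub*, a dominant negative subunit of the calcium uniporter, rose, at 0.42 and 1.11 in WT. *Mcub* was at 0.543 ± 0.162 TPM in RT WT and 2.42 ± 1.06 in TN WT and passed the filter through the TN libraries, where it was high. Of the 5 sideroflexins, which carry serine and related solutes, *Sfxn3* was higher and *Sfxn5* lower at TN in both genotypes, at 0.42 and -0.75 in WT.

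The 10 carriers below a mean of 1 TPM were *Slc25a2*, *Slc25a13*, *Slc25a18*, *Slc25a21*, *Slc25a27*, *Slc25a31*, *Slc25a41*, *Slc25a43*, *Slc25a53* and *Slc25a54*. Among them is the second aspartate/glutamate carrier, citrin (*Slc25a13*), at 0.187, 0.323 and 0.186 TPM in RT WT, 0.172, 0.204 and 0.242 in RT *Txnip*-/-, 0.444, 0.466 and 0.483 in TN WT and 0.653, 0.519 and 0.671 in TN *Txnip*-/-. Its level was thus below that of *Slc25a12* in each library. The germ line ADP/ATP carrier *Slc25a31* had a mean of 0.147 TPM and *Slc25a21* and *Slc25a54* means of 0.0202 and 0.0199. None was at 0 in all 12 libraries. *Slc25a27* (Ucp4) reached a mean of 1 in the TN libraries only and was tested there, at 0.072 ± 0.12 (SE, adjusted p = 0.764) in *Txnip*-/- against WT.

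Some carriers share exons with other genes of the GENCODE M21 annotation. *Slc25a10*, *Slc25a23*, *Slc25a33* and *Slc25a37* overlap antisense or unclassified genes on the opposite strand by 92 to 372 bases. *Slc25a26*, *Slc25a35* and *Slc25a46* overlap, also on the opposite strand, the coding genes *Lrig1*, *Rangrf* and *B930094E09Rik* by 124, 32 and 383 bases. *Slc25a21* overlaps the coding gene *Pax9* in the same way by 189 bases. The sources used here do not say whether reads were counted by strand, so reads of these stretches cannot be assigned with certainty. *Slc25a5* has a processed pseudogene under its own symbol with which it may share reads.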

How the data were processed

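Total poly-A RNA of interscapular BAT was sequenced in 12 libraries. Per the submitters' processing notes the tools were bcl2fastq, STAR 2.7.5a, HOMER 4.11.1 and DESeq2 on mm10. The deposited TPM values were made by the authors with HOMER over exons, with 1 transcript for each gene, and over the listed genes they sum to between 55.38% and 57.55% of the full TPM scale. The authors' log2-scale values, whose transform is not given in the sources used here, served as an alternative, and they name another transcript than the TPM table for 8 carriers at RT and 9 at TN. Deposited columns of fold changes and p-values were not used. Groups were taken from the labels.

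Genes with a mean of at least 1 TPM over the libraries of a fit were tested as log2(TPM + 1) with limma 3.58.1 in R 4.3.3, with Benjamini-Hochberg adjustment over all genes tested. Genotype was fitted over the 6 libraries of a temperature, and temperature and the interaction over all 12. Ratios of carriers were tested in Python 3.11.15 with numpy 2.4.6 by exact permutation, and plots were drawn with matplotlib 3.10.9. Fits were tested on simulated data. The carriers, substrate classes, pairs, marker lists and motifs were chosen with earlier results of these data known. Carriers were named where they were called in a comparison, were among the 5 highest or the highest of their class, or belonged to a pair, and *Slc25a13*, *Slc25a15*, *Slc25a29*, *Slc25a31*, *Slc25a38* and *Slc25a46* were chosen after their values were seen. The values of 1 carrier are not reported here, though counts and sums include it. Of the other lists, up to 3 called genes in each direction were named. Other settings were a pseudocount of 0.1, no filter, upper-quartile scaling, a replicate block, no fold limit, other libraries in the fit, and each library left out.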

Additional observations from a re-analysis of the deposited data

How the results depend on the processing

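Of 29 carrier calls, 18 held under every setting run, all of them among the 24 temperature calls, and 11 were lost under at least 1, including all 5 genotype calls. None of 70 recomputed carrier values changed direction. At RT, the 2 genotype calls became 1 with log2(TPM + 0.1), 0 with all genes kept, 0 with the replicate block, 1 on the authors' log values, 3 with all 12 libraries in the fit, where *Slc25a34* was added, and 0 to 1 with a library left out. At TN, the 3 calls became 0 with all genes kept, 1 on the authors' log values, 4 with all 12 libraries in the fit (3 higher and 1 lower), 4 with adjusted p alone and 0 to 2 with a library left out. With no filter, calls over all genes went from 178 to 44 at RT and from 1116 to 621 at TN, and the replicate block gave 100 at RT. More genes were then tested without the filter, 21970 at RT and 22494 at TN. In WT, temperature calls ran from 11 to 15 with a library left out, and in *Txnip*-/- from 10 to 15, where adjusted p alone gave 17. Upper-quartile scaling lost 4 temperature calls, those of *Slc25a26* in *Txnip*-/- and of *Slc25a30*, *Slc25a40* and *Slc25a45* in WT. Shifted ratios ran from 6 to 7 by temperature and from 0 to 2 by genotype with a library left out. The interaction gave 0 calls under each setting run. Deviations of same-numbered libraries from their group means correlated between the genotypes with r from -0.022 to 0.297 at RT. At TN, r ran from -0.036 to 0.042. Libraries of different numbers were not compared, so whether the numbers pair the libraries cannot be settled from these values. The replicate block gave 3 calls at TN, where *Slc25a47* was lost and *Slc25a33* gained (adjusted p = 0.0707 and 0.0391 by limma). By temperature it gave 14 in WT and 10 in *Txnip*-/-. Except for filtering, which changes the number of genes tested, the cause of these changes was not tested. With 3 libraries a group, and weak levels for *Slc25a12*, *Slc25a24*, *Slc25a34*, *Slc25a45* and *Slc25a47*, small differences may go undetected.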
